A study of Mus musculus with 11 samples.

Results

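Elastic fibers and the microfibrils that scaffold them were followed in the muscle spindle through 10 genes, *Eln*, *Fbn1*, *Fbn2*, *Mfap2*, *Mfap4*, *Mfap5*, *Ltbp4*, *Efemp1*, *Fbln5* and *Loxl1*. They were chosen by name, with earlier results of these data known, and all 10 have a row among the 22384 genes of the deposited expression table. The table comes from bulk RNA sequencing of intact spindles and of the extrafusal fibers beside them, called muscle, both dissected from the deep masseter, a jaw muscle rich in spindles. All mice carried *Piezo2*EGFP-IRES-Cre and the *Rosa26*tdTomato reporter, whose fluorescence guided the dissection. Per the study, the reporter was seen in intrafusal fibers, capsule cells and the cell bodies of sensory neurons, but not in the sensory endings within the spindle, and a spindle sample is a bundle of several spindles. The age of the mice used for RNA is not given in the sources used here. The libraries analysed are 5 of spindle (mice 9, 10, 12, 13 and 16) and 6 of muscle (those mice together with mouse 11), and another spindle sample was dropped by the authors for its low count of uniquely placed reads.

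An elastic fiber has a core of cross-linked elastin inside a mantle of microfibrils, which are polymers of fibrillin. Fibulins and latent TGF-beta binding proteins bring elastin monomers to the microfibrils, and lysyl oxidases join them covalently, which gives the tissue its recoil. Such fibers are known from arteries, lung, skin and the sheaths of nerves and muscles, and the spindle is wrapped in a capsule rich in extracellular matrix. Within a bulk sample, fewer cells of a type and less RNA per cell cannot be told apart, and no reading of cell of origin can be had from these libraries.

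The libraries held 8354260 to 23430654 reads. Levels are given as CPM, reads scaled to a common library total, after TMM scaling between libraries, and differences as log2 fold changes of spindle over muscle from edgeR. A call needed a log2 fold change of 1 or more in size, an adjusted p of 0.05 or less and a mean of 5 or more normalized reads. Under these thresholds 2493 genes were higher in spindle and 402 lower. Over all genes the log2 fold changes had a median of 0.29, and with the median gene set to 0 the split was 1889 higher and 1206 lower. The tissues were checked by markers of intrafusal fibers (*Myh3*, *Myh6*, *Myh7* and *Myh7b*), which summed to 582.3 to 1004 CPM in spindle and 2.25 to 7.38 in muscle. Of the proprioceptive neuron markers, *Piezo2*, *Slc17a7* and *Runx3* were called higher, while *Pvalb*, which fast muscle fibers also express, was lower.

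Of the 10 elastic fiber genes, 5 were called higher in spindle and none was lower, where 11.1% of all tested genes were called higher and 1.80% lower. The called genes were *Eln*, *Fbn2*, *Mfap5*, *Efemp1* and *Fbln5*. All 10 fold changes were positive, with a median of 0.999 on the log2 scale against 0.29 over all genes. By the adjusted p from edgeR and the minimum mean count alone, with no minimum fold change, 9 of the 10 were higher and none was lower, where 15.9% of all genes were higher and 15.0% lower, and *Mfap4* was the exception. In 6 of the 10, every spindle library lay above every muscle library, which held for 9.15% of all genes, and in none did every spindle library lie below, which held for 8.65%. Without spindle 10, 12 and 13, the libraries that an earlier look at these data found richest in odorant receptor reads, 5 members were again called, with *Fbn1* entering and *Fbn2* leaving. With library size alone as the scaling, which put the median gene at 0.60, 9 members and 3404 of all 22384 genes were called higher. With the median gene set to 0, 4 members and 1889 of all genes were.

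**Figure D1:**
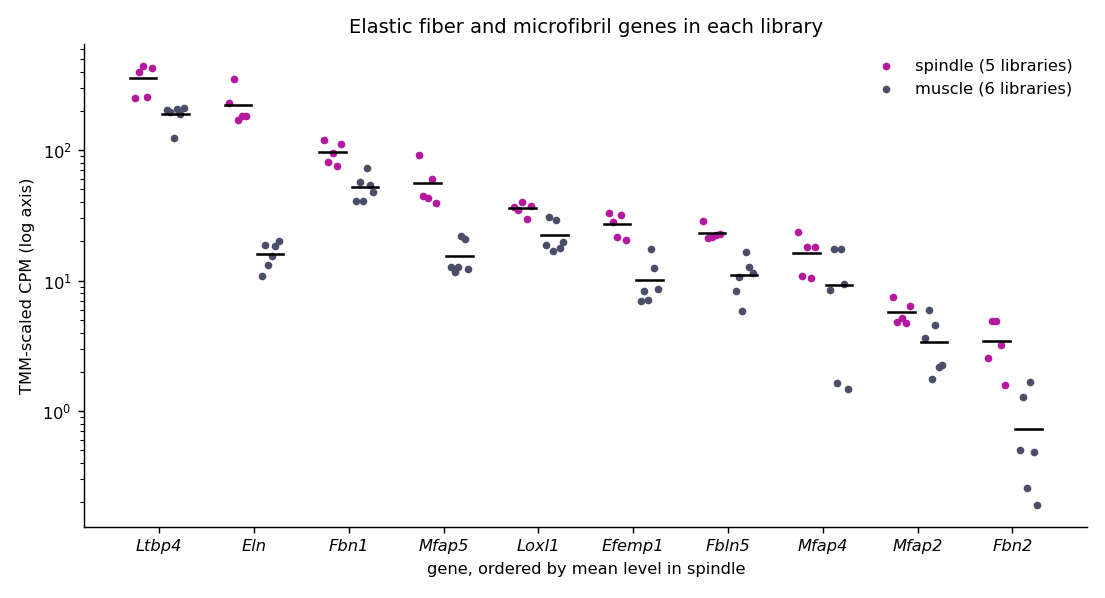
Levels of the 10 genes in each library, as TMM-scaled CPM on a log axis, for 5 spindle libraries (purple) and 6 muscle libraries (grey), with a black bar at each group mean. *Eln* shows the widest gap between the tissues, from 169.5 to 348.8 CPM in spindle and from 10.8 to 20.1 in muscle, while the points of *Mfap2*, *Mfap4*, *Loxl1* and *Fbn2* overlap.

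*Eln*, which encodes tropoelastin, the monomer of the elastic core, had the largest difference of the 10. Its level in the spindle libraries was 231.0 CPM in mouse 9, 348.8 in mouse 10, 169.5 in mouse 12, 182.7 in mouse 13 and 183.6 in mouse 16. In muscle it was 10.8, 18.7, 13.2, 15.5, 18.4 and 20.1 CPM in mice 9, 10, 11, 12, 13 and 16. The tissues were thus far apart, with spindle 10 highest, and the lowest spindle library lay well above the highest muscle library. The log2 fold change was 3.79 (standard error, SE, 0.21, edgeR adjusted p = 1.735e-10), from means of 223.1 ± 74.0 CPM (SD, n = 5) and 16.1 ± 3.59 (SD, n = 6). Within mice, the spindle exceeded the muscle of the same animal by 3.19 (mouse 16) to 4.41 (mouse 9) on the log2 scale. Over 20 alternative settings the fold change lay between 3.50 and 4.12, and the gene was called in every one. *Eln* lies on chromosome 5, 134702593 to 134747323 on the minus strand (GRCm38), and 3.3% of its exonic length overlaps a gene of the opposite strand.

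The fibrillins, which form the backbone of microfibrils, differed from each other in size of change. *Fbn1* (chromosome 2, 125300594 to 125507993), the main fibrillin of adult tissue, stood at 120.0, 81.3, 95.7, 75.3 and 111.4 CPM in spindle 9, 10, 12, 13 and 16. In muscle 9, 10, 11, 12, 13 and 16 it stood at 40.6, 56.8, 40.7, 73.6, 53.9 and 47.4 CPM. The groups met closely without overlap, spindle 13 lying just above muscle 12. Its log2 fold change of 0.89 (SE 0.16, edgeR adjusted p = 3.162e-04) missed the minimum of 1, which it crossed without muscle 12 and without spindle 10, 12 and 13 (1.15 in the latter case). An antisense gene with no row in the table covers 20.1% of its exonic length, and whether reads were counted by strand is not given in the sources used here, so part of its count is uncertain.

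*Fbn2* (chromosome 18, 58008623 to 58210487), the fibrillin best known from embryonic tissue, was sparse in both tissues. Spindle 9, 10, 12, 13 and 16 had 23, 82, 85, 40 and 35 reads, which is 2.56, 4.94, 4.92, 3.21 and 1.58 CPM. Muscle ranged from 0.19 CPM, on 4 reads in mouse 16, to 1.67 CPM, on 25 reads in mouse 12. Only spindle 16 fell inside the muscle range, just under muscle 12, and within each of the 5 mice the spindle was higher. *Fbn2* rose by 2.34 on the log2 scale (SE 0.47, edgeR adjusted p = 9.465e-04), the least precise of the 5 called members. Odorant receptor genes, which mark olfactory epithelium, summed to 144.4 to 227.9 CPM in spindle 9, 10, 12 and 13 and to 17.2 in spindle 16, the spindle library lowest in *Fbn2*. In muscle they summed to 49.9 and 63.3 CPM in mice 10 and 12, the muscle libraries highest in *Fbn2*, and to 9.22 to 18.3 in the others. The call of *Fbn2* ended without spindle 10, 12 and 13 (log2 fold change 1.55, edgeR adjusted p = 0.1193). That fit kept only spindle 9 and 16, and spindle 9 had 144.4 CPM of odorant receptor reads. It cannot tell fewer libraries from fewer of these reads, and their part in the result was not tested.

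The microfibril-associated proteins did not share one pattern. *Mfap5* (chromosome 6, 122505845 to 122529290), a small glycoprotein that binds fibrillin and integrins, stood at 91.8, 44.5, 42.7, 60.2 and 39.5 CPM in spindle 9, 10, 12, 13 and 16. Its muscle levels were 12.7, 11.6, 12.8, 22.1, 20.9 and 12.3 CPM in mice 9, 10, 11, 12, 13 and 16. Every spindle library lay above every muscle library, and spindle 9 stood highest. *Mfap5* rose by 1.85 on the log2 scale (SE 0.24, edgeR adjusted p = 5.028e-05) and was called in all 20 alternatives, between 1.55 and 2.13.

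*Mfap2* (chromosome 4, 141010418 to 141015984) encodes the closest relative of *Mfap5* and also coats fibrillin. It had 4.73 to 7.44 CPM in spindle with a median of 5.20, and 1.75 to 5.93 in muscle with a median of 2.96. Muscle 10 lay above 3 of the 5 spindle libraries, its own mouse's among them. At 0.80, the log2 fold change (SE 0.27, edgeR adjusted p = 0.0282) was under the minimum for a call, and over the alternatives it ran from 0.51 to 1.12, with adjusted p up to 0.1333.

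*Mfap4* (chromosome 11, 61485431 to 61488900), a fibrinogen-related protein of the matrix that binds elastin and fibrillin, varied more among muscle libraries than between tissues. Spindle 9, 10, 12, 13 and 16 stood at 23.4, 10.9, 18.04, 10.4 and 18.3 CPM. Muscle 10 and 12 stood at 17.5 and 17.4 CPM, muscle 9 and 13 at 8.45 and 9.47, and muscle 11 and 16 at 1.65 and 1.48. The muscle libraries thus spanned the lower spindle values, and in mouse 10 the muscle was the higher of the pair. *Mfap4* had a log2 fold change of 0.83 (SE 0.63, edgeR adjusted p = 0.3176), and limma-voom alone called it, at 1.48 (adjusted p = 0.0401). The tendon markers (*Scx*, *Tnmd*, *Mkx*, *Fmod*, *Thbs4* and *Comp*), none of the 6 called, had the same libraries at both ends in muscle. In spindle they shared the low end with *Mfap4* but not the high end. They summed to 701.4 and 614.7 CPM in muscle 10 and 12 and to 48.8 and 45.2 in muscle 11 and 16, over a range of 45.2 to 701.4 in muscle and 98.4 to 1089 in spindle, with no marker at 0 in a whole tissue. In spindle both were lowest in mouse 13 (tendon sum 98.4 CPM) and next lowest in mouse 10 (206.4). The tendon sum was highest in mouse 16 (1089 CPM), while *Mfap4* was highest in mouse 9, where the tendon sum was 358.9. Their part in the *Mfap4* values was not tested.

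**Figure D2:**
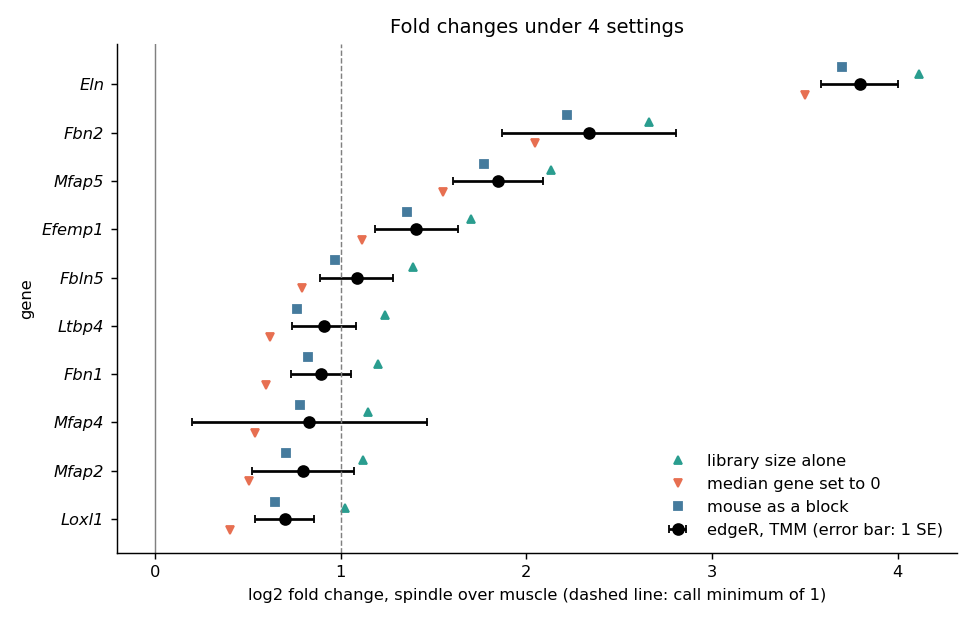
Log2 fold changes of spindle over muscle for the 10 genes. Black points are the edgeR fit with TMM scaling and 1 standard error, and the other symbols are 3 alternative settings. *Eln*, *Fbn2*, *Mfap5* and *Efemp1* stay right of the dashed call minimum of 1 in all 4, while *Fbln5* falls left of it with the mouse as a block (0.97) and with the median gene set to 0 (0.79).

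Of the 4 genes whose proteins help to assemble and cross-link the fiber, *Efemp1* and *Fbln5* were called higher and *Ltbp4* and *Loxl1* were not. *Efemp1* (chromosome 11, 28853204 to 28926743) encodes fibulin-3, a matrix protein of elastic tissue and basement membranes. It stood at 33.2, 28.3, 21.7, 31.7 and 20.4 CPM in spindle 9, 10, 12, 13 and 16 and at 6.95, 8.37, 7.10, 17.3, 12.6 and 8.62 in muscle 9, 10, 11, 12, 13 and 16. Muscle 12 was the closest to the spindle libraries without reaching them. *Efemp1* rose by 1.41 on the log2 scale (SE 0.22, edgeR adjusted p = 1.405e-04) and was called in all 20 alternatives.

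*Fbln5* (chromosome 12, 101746565 to 101819055) encodes fibulin-5, which tethers tropoelastin to microfibrils and to cell surface integrins and without which mice lack proper elastic fibers. Its spindle levels were close together, at 28.7, 21.1, 21.8, 22.2 and 22.9 CPM in mice 9, 10, 12, 13 and 16. Muscle levels were 8.39, 10.7, 5.87, 16.7, 12.8 and 11.4 CPM in mice 9, 10, 11, 12, 13 and 16. The tissues did not overlap, and muscle 12 and spindle 10 were the nearest. The log2 fold change of 1.09 (SE 0.20, edgeR adjusted p = 3.196e-04) lay just over the minimum for a call. The adjusted p passed in every alternative, at most 0.007873, but the fold change fell under the minimum with the mouse as a block (0.97), without muscle 11 (0.94) and with the median gene set to 0 (0.79).

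*Ltbp4* (chromosome 7, 27305136 to 27337692), a latent TGF-beta binding protein that works with fibulin-5 in elastic fiber assembly, was the most abundant of the 10 per kilobase of exon in both tissues. It stood at 253.1, 399.6, 442.0, 256.5 and 425.3 CPM in spindle 9, 10, 12, 13 and 16, and at 203.9, 196.7, 124.5, 208.4, 188.9 and 210.8 in muscle 9, 10, 11, 12, 13 and 16. Spindle 9 and 13 were low among the spindle libraries yet above all muscle libraries, and muscle 11 stood apart below the other muscle libraries. The log2 fold change was 0.91 (SE 0.17, edgeR adjusted p = 4.470e-04), under the minimum for a call, and it reached 1.012 without spindle 9 and 1.009 without spindle 13.

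*Loxl1* (chromosome 9, 58287738 to 58313186), a lysyl oxidase that cross-links elastin, had the smallest fold change of the 10. Spindle libraries ran from 29.5 to 40.1 CPM with a median of 37.0, and muscle libraries from 16.99 to 30.9 with a median of 19.2. Only spindle 13 fell among the muscle libraries, between muscle 12 and muscle 10. The log2 fold change was 0.70 (SE 0.16, edgeR adjusted p = 0.002224), and the spindle was higher in 5 of 5 mice.

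The sequences just before a start listed by RefSeq are shown for 3 of these genes, so that the letters of a called pair of fibulins can be set beside those of the uncalled main fibrillin. They are the 250 bases upstream of the first start that RefSeq lists on GRCm38.p6, 5′ to 3′ on the gene's strand, with matches to the GC box (GGGCGG or its reverse complement CCGCCC) in capitals. The *Fbn1* window lies inside the gene span given above, which comes from GENCODE, so the annotations place the start of *Fbn1* differently.
*Efemp1*, chr11:28852955-28853204, plus strand: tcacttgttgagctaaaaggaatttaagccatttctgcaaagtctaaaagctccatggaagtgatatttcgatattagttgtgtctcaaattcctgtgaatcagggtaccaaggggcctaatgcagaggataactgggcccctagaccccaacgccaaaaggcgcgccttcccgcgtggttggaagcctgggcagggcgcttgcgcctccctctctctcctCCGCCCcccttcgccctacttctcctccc
*Fbln5*, chr12:101819120-101819369, minus strand: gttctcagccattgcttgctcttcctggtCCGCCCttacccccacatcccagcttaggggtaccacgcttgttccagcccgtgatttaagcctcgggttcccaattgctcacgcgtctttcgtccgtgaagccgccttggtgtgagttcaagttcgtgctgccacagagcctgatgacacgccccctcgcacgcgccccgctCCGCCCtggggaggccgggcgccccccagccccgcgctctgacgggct
*Fbn1*, chr2:125506439-125506688, minus strand: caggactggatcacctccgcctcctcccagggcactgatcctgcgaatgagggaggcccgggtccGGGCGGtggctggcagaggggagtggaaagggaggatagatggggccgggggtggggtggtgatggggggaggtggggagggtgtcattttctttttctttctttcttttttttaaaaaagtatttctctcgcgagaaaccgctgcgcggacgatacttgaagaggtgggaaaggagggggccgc

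Promoter windows from RefSeq were read for 5 of the 10 members, *Fbn1*, *Mfap2*, *Ltbp4*, *Efemp1* and *Fbln5*. All 5 windows held at least 1 GC box, from 1 in *Fbn1* and *Efemp1* to 3 in *Ltbp4*, where 32.9% of 27025 gene promoters of the same length hold one. Their GC content was 53.6% (*Efemp1*) to 68.8% (*Mfap2*), against a median of 52.0% over all promoters. None of the 5 held the TATA box (TATAAA or TTTATA, in 13.0% of all promoters) or the SMAD box (CAGAC or GTCTG, in 42.1%). *Efemp1* alone held an AP-1 site (TGANTCA, in 6.87% of all promoters), and *Ltbp4* and *Fbln5* held the CCAAT box (CCAAT or ATTGG, in 34.5%). The E box (CANNTG, in 66.0% of all promoters) had 1 match each in *Ltbp4*, *Efemp1* and *Fbln5*. Both strands were searched for each motif, and a GC box match and another motif may share letters. By GENCODE positions the *Fbn1* and *Mfap2* windows lie inside their genes, and the *Ltbp4* window overlaps its gene. A match describes the letters of these windows only.

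Levels of different genes were compared per kilobase of merged exons, since long transcripts yield more fragments. On this scale the spindle libraries summed to 147.0 ± 14.6 CPM per kb over the 10 genes (SD, n = 5), and the muscle libraries to 60.8 ± 13.4 (SD, n = 6). *Ltbp4* led in both tissues, at 55.0 ± 14.4 and 29.2 ± 5.04 CPM per kb. *Eln* was second in spindle, at 27.6 ± 9.14 CPM per kb, and eighth in muscle, at 1.99 ± 0.443, where it lay near *Fbln5* at 1.59 ± 0.537. *Fbn2* was last in both tissues, at 0.260 ± 0.112 and 0.0554 ± 0.0456 CPM per kb. In spindle, *Mfap5* (15.5 ± 6.03) and *Efemp1* (13.3 ± 2.83) did not differ beyond their spread, and neither did *Mfap4* (8.44 ± 2.87) and *Fbn1* (7.98 ± 1.57). In muscle, *Efemp1* (4.99 ± 1.997), *Mfap4* (4.86 ± 3.71), *Fbn1* (4.30 ± 1.02) and *Mfap5* (4.29 ± 1.33) lay within each other's spread.

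The make-up of the group shifted accordingly. *Eln* held 14.04% to 26.7% of the summed level per kb in the spindle libraries and 2.32% to 4.36% in the muscle libraries, with no overlap. *Ltbp4* held 37.3% ± 8.46 of the sum in spindle (SD, n = 5) against 48.7% ± 6.36 in muscle (SD, n = 6), and *Loxl1* 7.40% ± 0.594 and 11.1% ± 1.82. As the shares of a library sum to a whole, a rise of one lowers the others. The scale rests on the length used. The annotated exons of *Eln* merge to 8.098 kb while its longest transcript has 3.853 kb, and per longest transcript *Eln* held a mean of 29.0% in spindle and 5.96% in muscle. By that length *Eln* had rank 2 in spindle, at 57.9 CPM per kb against 66.0 for *Ltbp4*. In muscle it had rank 7, at 4.18, near *Fbn1* at 4.36 and above *Fbln5* at 1.88.

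**Figure D3:**
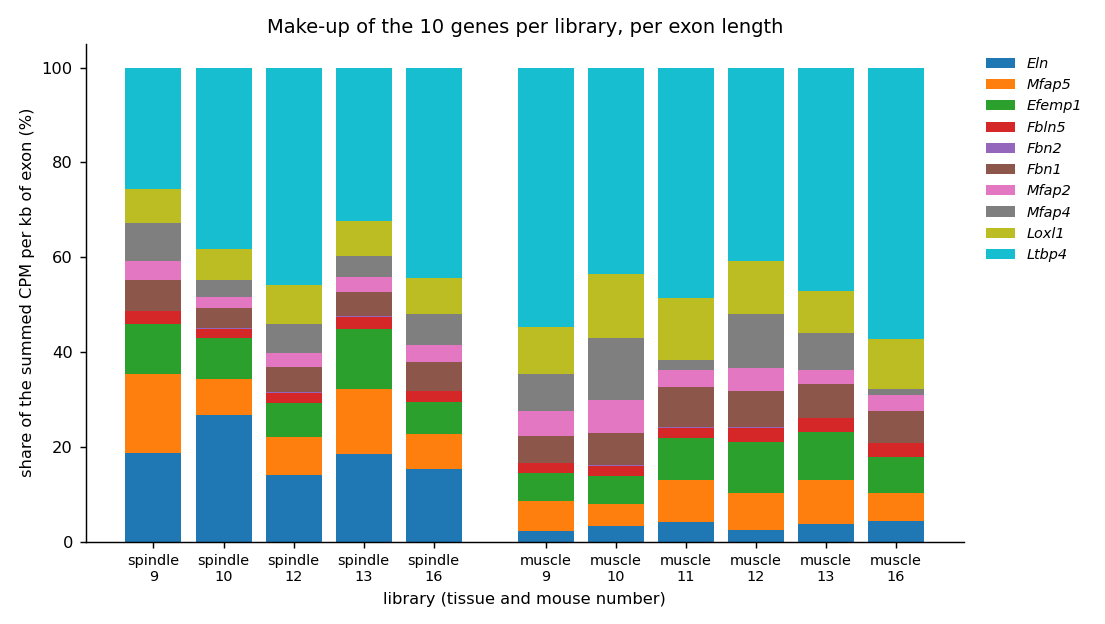
Share of each gene in the summed CPM per kb of exon of the 10 genes, for each library (bars sum to 100%). The *Eln* share, at the bottom, is 14.04% to 26.7% in the 5 spindle libraries and 2.32% to 4.36% in the 6 muscle libraries.

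Ratios of reads within a library do not depend on the scaling between libraries, and 4 ratios of 2 members were compared by exact permutation of the tissue labels over the 11 libraries. Reads of *Eln* per read of *Fbn1*, the core against the backbone, ran from 1.65 to 4.29 in spindle and from 0.211 to 0.424 in muscle. The log2 ratio was higher in spindle by 2.87 (SE 0.29, exact permutation test, two-sided, p = 0.002165, adjusted over the 4 ratios 0.008658), the smallest p this design allows. *Fbn2* per *Fbn1* ran from 0.0144 to 0.0610 in spindle and from 0.00454 to 0.0238 in muscle, a difference of 1.56 on the log2 scale (SE 0.56, exact permutation p = 0.02814, adjusted 0.05195). *Mfap5* per *Mfap2* ran from 6.12 to 12.6 in spindle and from 1.95 to 9.46 in muscle, a difference of 0.96 (SE 0.38, exact permutation p = 0.03896, adjusted 0.05195). For the fibulin pair, *Efemp1* per *Fbln5* ran from 0.892 to 1.43 in spindle and from 0.754 to 1.21 in muscle, a difference of 0.32 (SE 0.17, exact permutation p = 0.09307, adjusted 0.09307). After adjustment, the *Eln* to *Fbn1* ratio alone passed 0.05, as it did with each single library left out. The others crossed 0.05 with 1 library left out, *Fbn2* to *Fbn1* without spindle 16 or muscle 10, 11 or 12, *Mfap5* to *Mfap2* without spindle 16 or muscle 11 or 13, and *Efemp1* to *Fbln5* without spindle 16 or muscle 11. Without spindle 10, 12 and 13 the *Fbn2* to *Fbn1* difference was 0.64. Within the 5 mice with libraries of both tissues the *Eln* to *Fbn1* difference was 2.88, higher in spindle in 5 of 5, where an exact sign-flip test cannot go below p = 0.0625.

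**Figure D4:**
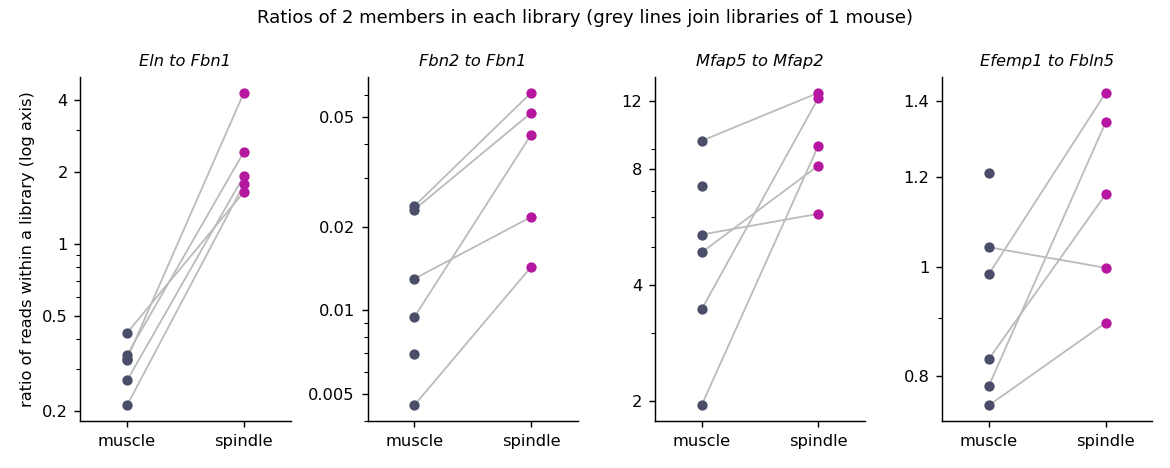
Ratios of raw reads of 2 members within each library, on log axes, with grey lines joining the muscle and spindle libraries of 1 mouse. The *Eln* to *Fbn1* ratios of the tissues do not overlap (1.65 to 4.29 in spindle, 0.211 to 0.424 in muscle), and the other 3 ratios do.

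Markers of other cell types moved with the tissues, and their values are given beside the members. The 8 markers of muscle fibroblasts, cells known to make much of the matrix, had 4 called higher and none lower, where 11.1% of all genes were called higher. Those not called were *Col1a1* (log2 fold change -0.04), *Col3a1* (0.99), *Dpt* (0.62) and *Pi16* (0.31). The 8 summed to 2007 to 3450 CPM in spindle and 675.3 to 1907 in muscle, with no marker at 0 in a whole tissue. The largest parts of these sums were *Dcn*, *Col1a1* and *Col3a1*. All 6 perineurial markers (233.0 to 390.4 CPM summed in spindle, 9.01 to 18.8 in muscle), all 5 endoneurial fibroblast markers (182.4 to 461.4 and 24.1 to 52.0), all 6 Schwann cell markers (590.2 to 1125 and 87.6 to 321.4) and all 5 macrophage markers (42.0 to 77.9 and 13.7 to 28.6) were called higher. Of the smooth muscle and pericyte markers, whose cells make elastin in vessel walls, 2 of 6 were called higher, *Acta2* and *Tagln*. *Acta2* had 106.7 to 203.2 CPM in spindle and 31.8 to 68.4 in muscle (log2 fold change 1.60, edgeR adjusted p = 2.158e-05). *Tagln* was sparse, with means of 1.14 and 0.40 CPM. The sums of all 6 overlapped at 506.3 to 683.1 CPM in spindle and 446.4 to 732.6 in muscle. Their largest part was *Rgs5*, not called, with means of 345.8 CPM in spindle and 441.4 in muscle. None of the 23 endothelial, tendon, cartilage, adipocyte and erythroid markers in the table met all call thresholds with edgeR, limma-voom or DESeq2. The 2 with an unadjusted edgeR p under 0.05 also passed the adjusted p, the endothelial *Cldn5* (log2 fold change 0.64, edgeR adjusted p = 0.004075), which missed the minimum fold, and the cartilage *Matn3* (2.88, edgeR adjusted p = 0.03242), which missed the minimum mean count. Spindle 9, with the most of the fibroblast, endoneurial, perineurial and macrophage markers, was the highest spindle library for 6 of the 10 members. Muscle 12 was the highest muscle library for 5, and for the summed fibroblast, endoneurial, perineurial, macrophage, adipocyte and odorant receptor markers. The part of these cell types in the members' differences was not tested.

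Set against the mean log2(CPM + 0.5) of the 8 fibroblast markers, a comparison chosen after the values were seen, the members fell apart. These markers were higher in spindle by 1.02 on that log2 scale. *Eln* was higher in spindle than the markers by a further 2.71 and *Mfap5* by 0.78, both with all spindle libraries above all muscle libraries. *Fbn2* was higher by a further 0.70 and *Efemp1* by 0.40, with overlap. The 0.5 added is close to the muscle mean of *Fbn2* (0.73 CPM) and shrinks its value, so its order against *Mfap5* is uncertain. The edgeR log2 fold changes were 2.34 for *Fbn2* and 1.85 for *Mfap5*. *Fbln5*, at 0.10, and *Mfap4*, at 0.16, differed little from the markers, and *Ltbp4*, *Fbn1*, *Mfap2* and *Loxl1*, at -0.13, -0.12, -0.25 and -0.31, lay slightly under them, all 6 with overlapping tissues. These values hold for this list only, whose median edgeR log2 fold change was 1.08. The median was 2.17 for endoneurial fibroblast, 4.28 for perineurial, 1.69 for macrophage, 0.72 for smooth muscle and pericyte and 0.18 for endothelial markers. The members were not set against those other lists.

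Other genes of elastic fiber biology were read from 7 lists, also chosen with earlier results of these data known. Of 49 genes, 48 had a row, of which edgeR called 18 higher and none lower and left 30 uncalled, against the same 11.1% and 1.80% of all genes. Their median log2 fold change was 0.86, against 0.29 over all genes. With the median gene set to 0, 12 were higher, as *Adamts10*, *Adamtsl2*, *Adamtsl3*, *Mmp2*, *Mmrn1* and *Itga9* left.

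Among the other fibulins and the related hemicentins, 3 of 6 were higher. *Fbln1*, which encodes fibulin-1, a matrix protein found with elastin and in basement membranes, had 54.0 to 96.9 CPM in spindle and 4.93 to 12.1 in muscle and rose by 2.93 on the log2 scale (SE 0.24, edgeR adjusted p = 4.496e-07). The hemicentins, giant matrix proteins that link epithelia and basement membranes, rose by 1.80 (*Hmcn1*, standard error 0.25) and 1.75 (*Hmcn2*, 0.20). *Efemp2*, fibulin-4, which recruits lysyl oxidase to elastin, had a log2 fold change of 0.87 (0.19) and *Fbln2* one of 0.60 (0.17), and neither was called. *Efemp2* was called in 2 of 20 alternatives, with library size alone and without muscle 12.

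Of the other latent TGF-beta binding proteins and the TGF-beta ligands, 2 of 6 were higher. *Ltbp1*, which holds latent TGF-beta in the matrix, had 30.9 to 47.2 CPM in spindle and 9.01 to 18.7 in muscle, a log2 fold change of 1.44 (SE 0.16, edgeR adjusted p = 1.554e-06). *Ltbp2*, a microfibril protein that does not bind TGF-beta, was sparse, at 0.22 CPM in spindle 9 and 1.33 to 2.48 in the other spindle libraries against 0.05 to 0.20 in muscle, a log2 fold change of 3.67 (0.55). *Ltbp3*, *Tgfb1*, *Tgfb2* and *Tgfb3* had log2 fold changes of 0.27, 0.41, 0.51 and 0.15, and none was called.

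Of 8 genes of cross-linking, processing and folding, *Loxl4* alone was called. This lysyl oxidase rose by 2.04 on the log2 scale (SE 0.42, edgeR adjusted p = 0.001289), from 3.37 to 8.61 CPM in spindle and 0.38 to 2.34 in muscle. *Lox*, the founding lysyl oxidase, was uneven in muscle, at 24.3 CPM in mouse 12 and 1.60 in mouse 11, with a log2 fold change of 0.86 (0.66), and it was called by limma-voom and without muscle 12. *Bmp1*, the protease that activates lysyl oxidase, did not overlap between the tissues (52.8 to 66.3 and 21.0 to 34.7 CPM) but had a log2 fold change of 0.95 (0.13), under the minimum. It was called in 4 of 20 alternatives, which were DESeq2 size factors, library size alone, the DESeq2 test and the filter on low counts. *Loxl3*, at 0.95 (0.26), crossed the minimum in 10 of 20 alternatives.

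The ADAMTS and ADAMTS-like proteins, several of which bind fibrillin, had 5 of 8 genes higher. *Thsd4*, whose product promotes fibrillin assembly into microfibrils, had 7.70 to 13.97 CPM in spindle and 0.463 to 2.83 in muscle and rose by 3.02 on the log2 scale (SE 0.30, edgeR adjusted p = 3.627e-07). *Adamts6* rose by 1.89 (0.32), *Adamts10*, a protease tied to fibrillin-1 microfibrils, by 1.12 (0.14) and *Adamtsl3* by 1.12 (0.19). *Adamtsl2*, at 1.13 (0.35), lost its call in 7 of 20 alternatives, among them without each of spindle 10, spindle 12, muscle 9, muscle 11 and muscle 16.

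Emilins, glycoproteins at the border of core and mantle, and multimerins had 2 of 5 genes higher. *Emilin3* rose by 3.29 on the log2 scale (SE 0.37, edgeR adjusted p = 1.842e-06), from 2.89 to 5.72 CPM in spindle and 0 to 0.801 in muscle. *Mmrn1*, at 1.48 (0.51), lost its call in 9 of 20 alternatives, 7 of which left out a single library (spindle 9, spindle 16, muscle 9, 10, 11, 12 or 13). *Emilin1*, the emilin best known from elastic fibers, had a log2 fold change of 0.16 (0.22).

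Of the enzymes that can degrade elastin, 3 of 6 in the table were higher. *Ctss* and *Ctsk*, the cathepsins S and K, rose by 1.95 (SE 0.33) and 1.58 (0.30) on the log2 scale, and *Mmp2*, gelatinase A, by 1.19 (0.18, edgeR adjusted p = 6.987e-05). *Ctss* is also a gene of macrophages, whose 5 markers were all higher, and the part of any cell type in these 3 rises was not tested. *Mmp12*, the macrophage elastase, had a mean of 0.35 CPM in spindle and 0.08 in muscle and did not pass.

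Integrins hold cells to fibrillin and fibulin-5, and some can free TGF-beta from its latent form. Of 9 genes, *Itgb8* and *Itga9* were higher. *Itgb8* rose by 2.35 on the log2 scale (SE 0.28, edgeR adjusted p = 2.932e-06), from 4.55 to 8.31 CPM in spindle and 0.618 to 2.07 in muscle. *Itga9* rose by 1.13 (0.22), and this call ended with the mouse as a block, with the median gene set to 0 and without muscle 11. *Itgav*, *Itgb1* and *Itgb5* had log2 fold changes of 0.08 (0.14), -0.01 (0.13) and 0.04 (0.12). *Itgb6* was the only one of the 48 genes to pass the adjusted p downward (edgeR adjusted p = 0.01717), at -0.69 (0.21), which is under the minimum for a call.

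**Figure D5:**
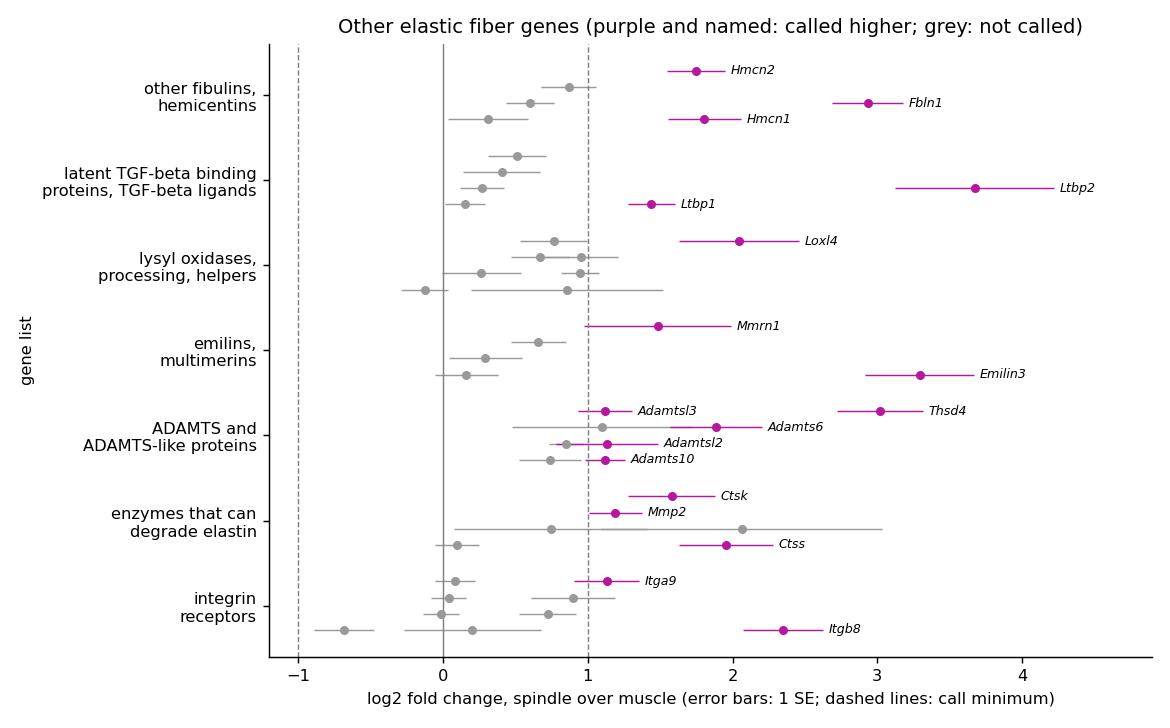
Log2 fold changes of spindle over muscle, with 1 standard error, for the 48 other elastic fiber genes in 7 lists. The 18 genes called higher are purple and named, the others are grey, and no point lies left of the lower call minimum of -1.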

How the data were processed

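Polyadenylated libraries were sequenced single-end, and 5 spindle and 6 muscle libraries were analysed here, a further spindle sample having been left out by the authors for its few uniquely aligned reads. The deposited counts are raw reads per gene that the authors made with STAR 2.4.2a on GRCm38 with GENCODE annotation, from uniquely mapped reads, and a gene was kept if some library had 5 or more. The 22 per-sample columns of normalized and regularized log values were not used, and neither were the authors' own fold changes and p-values. All rows name genes.

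The counts were tested with edgeR 4.0.16 in R 4.3.3 (TMM scaling, robust quasi-likelihood test, all 22384 genes, Benjamini-Hochberg adjustment), with the call thresholds of the study's methods. Mean normalized counts used DESeq2 size factors. Standard errors are the fold change over the root of the F statistic. Ratios of 2 members had 0.5 reads added to each count. Alternatives used DESeq2 1.42.0, limma 3.58.1, other scalings, thinned counts, a filter on low counts and left-out libraries. The test was checked on simulated data. Positions, exon lengths and exonic overlaps come from GENCODE vM21 by symbol, while the authors' annotation is a later release. Figures used matplotlib 3.10.9 in Python 3.11.15.

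Spindle and muscle samples with the same number in their titles were taken to come from the same mouse. The study states that each mouse gave both tissues but does not explain the numbers. Deviations from the group means correlated within each of the 5 mice at 0.08 (mouse 9) to 0.31, and spindle 9 correlated best with muscle 12, the other 4 with the muscle of their own mouse. No library was a copy of another (smallest chi-square per gene 21.6, where sampling noise gives about 1). The members and all gene lists were chosen with earlier results of these data known. Named genes are the 10 members and, per list, up to 4 called genes by smallest adjusted p, or the 2 smallest, with others named after their values were seen. With few reads, as for *Fbn2*, counting error limits precision.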

Additional observations from a re-analysis of the deposited data

Results flagged for a closer look

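In 28 groups of values (10 members and 4 ratios, in each tissue), 2 held a library that stood apart by Dixon's test at the 95% level, where chance flags about 1 in 20. *Ltbp4* in muscle 11 was the lowest at 124.5 CPM, and *Fbln5* in spindle 9 was the highest at 28.7 CPM. Without muscle 11 the log2 fold change of *Ltbp4* was 0.81, and without spindle 9 that of *Fbln5* was 1.005.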

How the results depend on the processing

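All 10 members kept their direction in all alternatives, and of their 200 alternative values 187 left the call as it was. The count of 5 members called higher became 9 with the adjusted p alone and 9 with library size alone, and ranged from 4 to 6 when 1 library was left out. With the mouse as a block it was 4, since *Fbln5* left (0.97), and no other member's call changed. Of the other elastic fiber genes, 29 were higher and 1 lower with the adjusted p alone, and 15 to 20 were higher with 1 library left out. Over all genes, 1580 were higher without spindle 10, 12 and 13 and 3404 with library size alone, against 2493 in the main fit. Lower genes numbered 3348 with the adjusted p alone, 140 with library size alone and 1206 with the median gene set to 0. With 1 library left out, 2158 to 2753 genes were higher and 327 to 535 lower. The *Eln* to *Fbn1* log2 difference was 2.53 without spindle 10, 12 and 13 (adjusted exact permutation p = 0.1429), a test with fewer spindle libraries. It was 2.88 with the replicate block (adjusted exact sign-flip p = 0.08333), a design too small to pass. With 1 library left out it was 2.64 to 2.98. With 2 reads added, *Fbn2* to *Fbn1* (1.375) and *Mfap5* to *Mfap2* (0.97) passed, both at an adjusted exact permutation p = 0.04906. With 1 library left out these 2 ratios ranged from 1.30 to 1.87 and from 0.70 to 1.16, and *Efemp1* to *Fbln5* from 0.24 to 0.41. The cause of these changes was not tested.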
